A study of Mus musculus with 9 samples.

Results

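The response that 2 different siRNAs have in common was measured by setting 6 knockdown libraries of cultured mouse microglia, 3 treated with Chd8 siRNA and 3 with Tsc2 siRNA, as 1 group against 3 libraries treated with control siRNA. These are all 9 libraries of the series, and they were chosen by their siRNA label alone. Microglia are the resident macrophages of the brain. The cells were primary cultures of C57BL/6J mice with no engineered allele, grown as mixed glia from late embryonic brain and then separated, and every culture received a commercial siRNA with a lipid reagent, so the controls carried the transfection too. The siRNA sequences were not given in the sources used here, and effects of a target and of its siRNA cannot be told apart. The study's account places the cells under LPS, whereas its sequencing methods name siRNA treatment only, and its list of experiments done without LPS does not include the sequencing. No label of these libraries names LPS. The libraries are numbered 1 to 3 within each siRNA, and the number was kept as a block in the model.

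Chd8 is a chromatin remodeler of the chromodomain helicase family that acts at promoters and restrains beta-catenin. Tsc2, or tuberin, forms with Tsc1 the complex that switches off Rheb and so restrains mTORC1, the kinase that couples growth to nutrients. Both genes are linked to autism. Cultured microglia keep an antioxidant programme under the transcription factor NRF2, which is held down by Keap1, and an interferon programme under the STAT and IRF factors, and they carry MHC class I molecules for antigen presentation.

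Library depth ranged from 16913005 to 33213477 estimated counts, and 16273 of 54119 genes passed the filter on low counts. Macrophage markers were strong in every library. On the scale of TMM-scaled counts per 1000000 counts (CPM), Csf1r was between 406 and 572 CPM and Ptprc between 609.6 and 872 CPM. The markers of undisturbed brain microglia were mixed. P2ry12 was low at 0.686 to 2.78 CPM and Tmem119 near the limit at 0 to 1.11 CPM. Cx3cr1 was at 6.25 to 13.4 CPM and Fcrls at 141 to 220 CPM. Summed over 9 astrocyte markers, the level was 15.6 to 114 CPM in the controls and 13.8 to 58.5 CPM in the knockdowns, with control 3 the highest of all libraries. Of those astrocyte markers, 3 of 9 were lower in the knockdowns at an unadjusted p under 0.05, as were 2 of 5 tested fibroblast and meningeal, 1 of 4 endothelial and 1 of 5 choroid plexus and ependyma markers, 0 of 5 neuronal and 0 of 5 oligodendrocyte lineage markers. Of all genes tested, 4.6% were lower and 5.34% higher at this threshold. Of 11 microglia and macrophage markers tested, 2 were higher and 1 lower, and no marker of these lists was called. The 7 fibroblast and meningeal markers summed to 12.9 to 68.6 CPM in the controls and 9.60 to 49.98 CPM in the knockdowns, the 9 neuronal markers to 4.60 to 19.8 and 3.25 to 13.8 CPM, the 9 oligodendrocyte lineage markers to 20.4 to 31.2 and 13.6 to 29.4 CPM, the 5 choroid plexus and ependyma markers to 29.9 to 139 and 6.13 to 155 CPM, and the endothelial markers to 184 to 235 and 158 to 214 CPM, of which Cldn5 stayed under 0.0638 CPM and Tek was at 0 throughout. The part of these cells' RNA in the results was not tested. Whether fewer cells of a type or less RNA per cell lies behind a lower level cannot be told apart in bulk RNA.

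The targeted genes check the labels. Chd8 was at 118, 97.4 and 93.6 CPM in controls 1 to 3, at 86.8, 44.5 and 38.3 CPM under Chd8 siRNA, and at 119, 89.8 and 101 CPM under Tsc2 siRNA. Tsc2 was at 40.8, 39.9 and 38.9 CPM in the controls, at 24.6, 30.6 and 36.5 CPM under Tsc2 siRNA, and at 38.6, 38.6 and 40.1 CPM under Chd8 siRNA. The Chd8 libraries lay below all other libraries for Chd8, and the Tsc2 libraries below all others for Tsc2, although Tsc2 siRNA 3 came close to the controls. Against control, Chd8 siRNA changed Chd8 by -0.93 ± 0.14 (log2 fold change and SE, edgeR FDR 0.00777), while Tsc2 under Tsc2 siRNA was at -0.39 ± 0.12 and did not pass the FDR (edgeR, 0.219, with an unadjusted p of 0.00612). Neither target was called in the pooled comparison, where only 3 of the 6 knockdown libraries received the siRNA against it: the pooled log2 fold change was -0.39 for Chd8 (edgeR FDR 0.648) and -0.20 for Tsc2 (edgeR FDR 0.673). Igf1, the growth factor that the study followed, was at 340, 490.4 and 404 CPM in the controls and between 359 and 513 CPM in the knockdowns. The groups overlapped widely for Igf1, with a pooled log2 difference of 0.03 ± 0.065 (SE).

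A gene was called when edgeR's quasi-likelihood test gave a Benjamini-Hochberg adjusted p (FDR) under 0.05 and the fold change passed 1.5. By this rule 19 genes were called in the pooled comparison, 0.117% of the genes tested, with 10 higher (0.0615%) and 9 lower (0.0553%). At any fold, 29 genes passed the FDR, or 0.178%. All 19 called genes lay on the same side of the control library of their number in all 6 knockdown libraries, whereas 6.76% of all genes lay above and 6.7% below in all 6. The blocked test favours genes of this kind, so their agreement is a description. In 6 of the 19, 3 higher and 3 lower, the knockdown and control groups did not overlap at all, against 0.94% of all genes with every knockdown library above every control and 1.11% with every one below. In the exact permutation test within replicate numbers, which has 27 arrangements, each of the 29 genes had a p of 0.037, the smallest that test can give. They were chosen on the same values by the blocked test, so this adds no support. The comparison rests on the same 3 control libraries throughout, so a response shared by the siRNAs and something particular to those controls cannot be told apart.

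**Figure D1:**
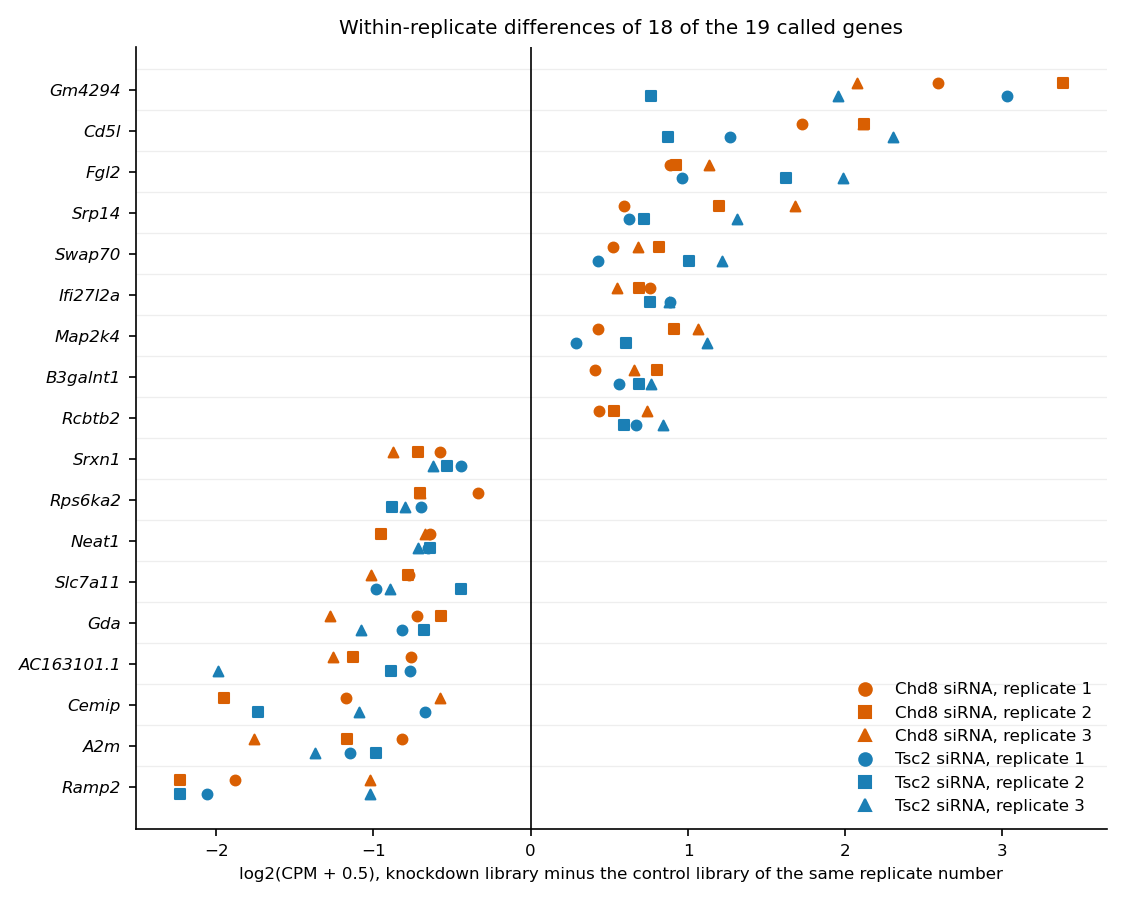
Each point is the log2(CPM + 0.5) of 1 knockdown library minus that of the control library of the same replicate number, for 18 of the 19 called genes, with Chd8 siRNA in orange, Tsc2 siRNA in blue and the replicate number as the marker shape. All 6 points of each gene lie on 1 side of 0. The pseudocount of 0.5 shrinks Ramp2 and Gm4294, which are near 0 in 1 group.

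The calls depended on which libraries entered the fit. Without control 3 no gene was called by edgeR, with 940 genes at an unadjusted p under 0.05. Without control 1, control 2, Chd8 siRNA 1 or Chd8 siRNA 3 the count was 13, 3, 4 or 38. Each number has 1 control. With the number as a block, leaving out a control also takes the knockdown libraries of its number out of the comparison. This holds for every fit without a control given below. All 19 genes kept their direction in all gene-level fits. Each of them lay on 1 side of its control in all 6 pairs, so the choice of genes largely fixed this and it adds no support.

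Of the genes lower past the FDR, 3 have to do with oxidant defence. Slc7a11 (chr3:49892526-50443614, minus strand, mm10), the transport chain of the cystine and glutamate exchanger that feeds glutathione synthesis, was at 182, 252 and 511 CPM in controls 1 to 3. It was at 106, 147 and 253 CPM under Chd8 siRNA and at 91.9, 185 and 275 CPM under Tsc2 siRNA. The control levels spread widely and the groups overlapped, but each knockdown library lay below the control of its number. The pooled log2 fold change was -0.81 ± 0.091 (SE), 1.76-fold lower, at an edgeR FDR of 0.00293. Srxn1 (chr2:152105516-152111376, plus strand), sulfiredoxin, which repairs over-oxidised peroxiredoxins, was at 122, 87.8 and 142 CPM in the controls, at 81.5, 53.3 and 77.0 CPM under Chd8 siRNA and at 89.5, 60.5 and 92.2 CPM under Tsc2 siRNA. Its groups overlapped only through control 2, and it was 1.55-fold lower, with a log2 fold change of -0.63 ± 0.087 at an edgeR FDR of 0.0174. Hmox1 (chr8:75093621-75100589, plus strand), heme oxygenase 1, was at 552, 529.7 and 631 CPM in the controls, at 421, 416 and 434 CPM under Chd8 siRNA and at 391, 367 and 346 CPM under Tsc2 siRNA. Every knockdown library lay below every control for Hmox1. It passed the FDR (edgeR, 0.0183) at a log2 fold change of -0.53 ± 0.082, which is 1.44-fold and short of the fold threshold.

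**Figure D2:**
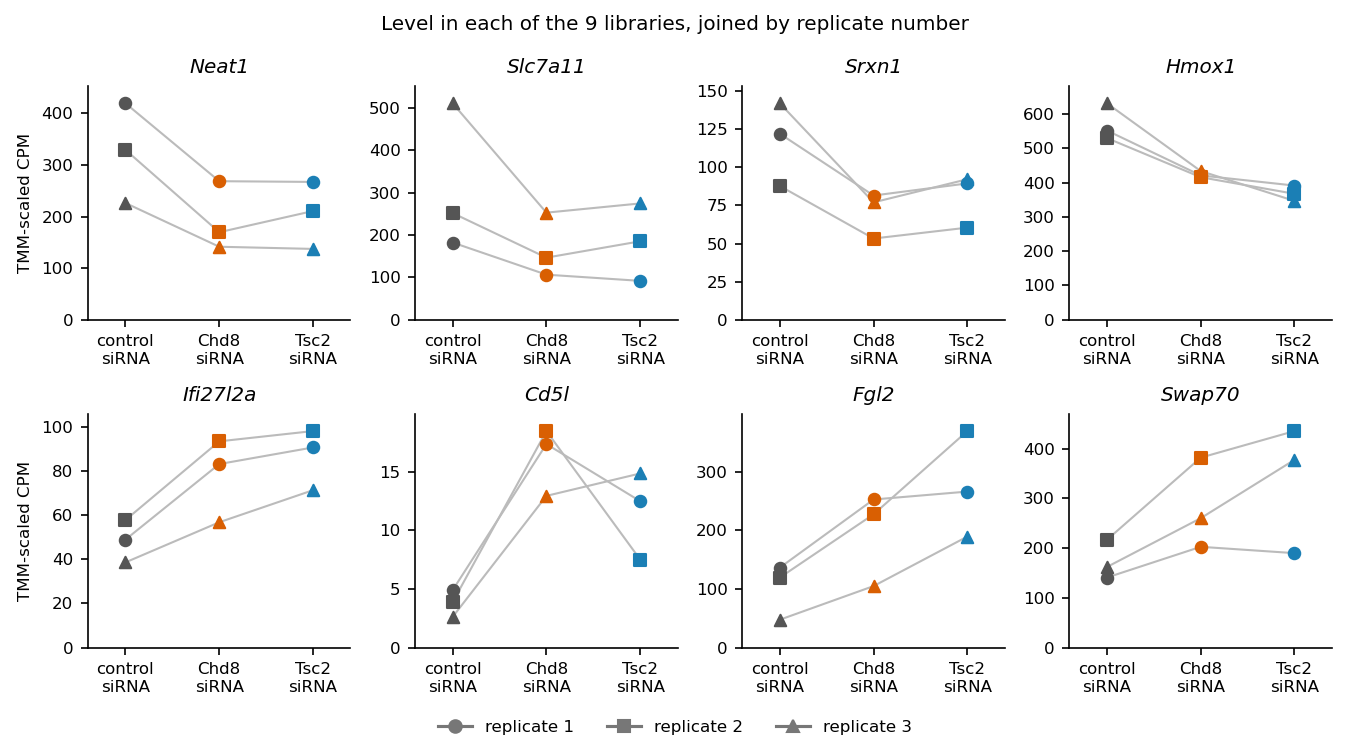
TMM-scaled CPM (linear axes from 0) of 4 genes that were lower in the knockdowns (top) and 4 that were higher (bottom), in each of the 9 libraries, with grey lines joining the libraries of 1 replicate number. For Neat1, Slc7a11 and Ifi27l2a the libraries of 1 siRNA spread by number, while each line goes the same way from control to either knockdown, and for Hmox1 the groups do not overlap.

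Across the wider list of NRF2 antioxidant genes, 16 of 25 tested members were lower and 1 was higher at an unadjusted p under 0.05, where 4.6% of all genes were lower and 5.34% higher. This list and those below were chosen with earlier results of these data known, so their counts beside all genes are a description. The median log2 fold change of the list was -0.22, against -0.01 over all genes, and 15 of its members lay below the control of their number in all 6 knockdown libraries. In each of the 6 knockdown libraries the median difference of the list from its control was below 0, from -0.34 in Chd8 siRNA 3 to -0.19 in Chd8 siRNA 1. Only Slc7a11 and Srxn1 were called. The 2 subunits of the enzyme that makes gamma-glutamylcysteine are named here after their values were seen. Gclm, the modifier subunit, was at 52.1, 70.4 and 87.5 CPM in the controls and at 31.3 to 65.8 CPM in the knockdowns (log2 fold change -0.66, edgeR FDR 0.0847). Gclc, the catalytic subunit, was at 17.5, 25.7 and 39.5 CPM in the controls and at 10.7 to 27.6 CPM in the knockdowns (log2 fold change -0.55, edgeR FDR 0.128). Neither passed the FDR. Nfe2l2, which encodes NRF2, had a log2 fold change of -0.19 (unadjusted edgeR p of 0.0268) and Keap1, its inhibitor, one of 0.26 (unadjusted edgeR p of 0.0173), each on the same side in all 6 libraries. Nqo1, a classical target, was near the limit at 0.469 to 1.79 CPM with overlapping groups. Under other fits the count of lower members ran from 7 without the replicate block to 17 with the siRNA as 3 levels, and it was between 11 and 16 when 1 library was left out, with 11 without control 3 and 12 without control 2 or Tsc2 siRNA 1. It was 13, 11 and 10 without replicate 1, 2 and 3. Control 3 had the highest summed astrocyte, fibroblast and meningeal, neuronal and endothelial marker levels. The largest member there was Flt1 (186 CPM) of the endothelial, Map2 (13.6 CPM) of the neuronal and Col1a1 (44.0 CPM) of the fibroblast and meningeal markers. The endothelial Pecam1 and Cdh5 and the neuronal Snap25 and Syt1 were lower in control 3 than in controls 1 and 2. The part of the marker RNA in these differences was not tested.

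The stretches just upstream of the gene start are shown for the 3 NRF2 list members with the lowest p that the RefSeq promoter table holds, since members of this list lay below control together and NRF2 acts through antioxidant response elements. They were chosen after the values were seen, are given 5′ to 3′ on the gene's strand (RefSeq, GRCm38.p6), and stop where the annotated gene begins. Capitals mark matches to TGACNNNGC, the core of the antioxidant response element, to TGANTCA, the AP-1 element, to GAAANNGAA, part of the interferon-stimulated response element, or to CACGTG, the E-box, each searched on both strands, and 1 site can count for both of the TGA motifs.
Slc7a11, chr3:50443615-50443863, minus strand: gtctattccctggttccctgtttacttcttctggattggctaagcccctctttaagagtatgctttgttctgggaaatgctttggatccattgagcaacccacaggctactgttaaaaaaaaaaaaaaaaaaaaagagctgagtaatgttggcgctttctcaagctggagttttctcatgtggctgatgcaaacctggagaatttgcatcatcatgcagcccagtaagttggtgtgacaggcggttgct
Srxn1, chr2:152105274-152105515, plus strand: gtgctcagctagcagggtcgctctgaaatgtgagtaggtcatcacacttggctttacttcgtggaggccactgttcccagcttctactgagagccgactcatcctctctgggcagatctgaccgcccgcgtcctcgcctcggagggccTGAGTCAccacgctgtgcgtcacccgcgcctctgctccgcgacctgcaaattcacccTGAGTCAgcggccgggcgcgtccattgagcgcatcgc
Gclm, chr3:122245307-122245556, plus strand: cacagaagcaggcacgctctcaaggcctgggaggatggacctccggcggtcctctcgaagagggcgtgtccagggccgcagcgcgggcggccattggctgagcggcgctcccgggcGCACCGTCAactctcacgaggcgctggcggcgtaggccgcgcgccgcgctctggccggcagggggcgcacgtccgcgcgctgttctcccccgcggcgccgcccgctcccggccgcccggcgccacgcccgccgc
No match was found in the Slc7a11 stretch. Srxn1 held TGANTCA at 102 to 96 and again at 45 to 39 bases before its RefSeq start, and Gclm held TGACNNNGC on the opposite strand at 134 to 126 bases before its start. Of the 21 list members found in the table, 6 held TGACNNNGC in the 250 bases upstream, while 11.5% of 27025 genes did, and 3 held TGANTCA, against 7.82% of genes. Of 21 interferon response genes found there, 4 held TGACNNNGC and 7 held TGANTCA, so neither motif is particular to the NRF2 list. A match is a description of letters and not a shown binding site.

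Neat1 (chr19:5824708-5845478, minus strand), the long non-coding RNA that scaffolds paraspeckles, had the lowest p of all genes. It was at 419.7, 329 and 226 CPM in the controls, at 269, 169.7 and 142 CPM under Chd8 siRNA and at 267, 211 and 137 CPM under Tsc2 siRNA. The groups overlapped across numbers, but within each number the knockdown libraries were lower by similar amounts. The log2 fold change was -0.71 ± 0.075 (SE), 1.64-fold lower, at an edgeR FDR of 0.00293. Of 19 long non-coding RNAs of the list tested, 3 were lower at an unadjusted p under 0.05 and none was higher, and only Neat1 was called. Without Tsc2 siRNA 2 there were 5 lower ones. The transcript that made up 72.0% of Neat1 counts in the controls and 59.5% in the knockdowns had a log2 fold change of -0.98, and no transcript of any gene was called by edgeR when transcripts were tested as deposited, with 2012 of them at an unadjusted p under 0.05.

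A pair of lower genes act outside the cell. A2m (chr6:121635376-121679227, plus strand), alpha-2-macroglobulin, a broad protease inhibitor, was at 4.11, 5.36 and 16.7 CPM in the controls, at 2.11, 2.10 and 4.57 CPM under Chd8 siRNA and at 1.58, 2.46 and 6.15 CPM under Tsc2 siRNA. It was 2.56-fold lower (log2 fold change -1.36 ± 0.21, edgeR FDR 0.0178). Cemip (chr7:83932857-84086502, minus strand), which takes part in hyaluronan breakdown, was at 4.71, 29.5 and 43.6 CPM in the controls, at 1.81, 7.27 and 29.0 CPM under Chd8 siRNA and at 2.77, 8.52 and 20.2 CPM under Tsc2 siRNA. It was 2.43-fold lower (log2 fold change -1.28 ± 0.20, edgeR FDR 0.0183). Both genes were highest in control 3, and the groups overlapped. That library had the highest summed astrocyte, fibroblast and meningeal, neuronal and endothelial marker levels, though Pecam1, Cdh5, Snap25 and Syt1 were lower there than in the other controls. Without control 3 the log2 fold change of A2m was -1.19 and that of Cemip was -1.53, and neither gene was called when any 1 of the 3 controls or Chd8 siRNA 1 was left out, nor was Cemip without Tsc2 siRNA 2. In the list of matrix proteases, inhibitors and remodelers, 5 of 27 tested members were lower and 2 higher at an unadjusted p under 0.05, and only A2m and Cemip were called. The count of lower members was 3 without control 2 and 9 without Chd8 siRNA 3.

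The other lower genes were of several kinds. Rps6ka2, a ribosomal S6 kinase downstream of ERK, was at 19.6, 45.1 and 44.4 CPM in the controls and at 11.9 to 27.5 CPM in the knockdowns, a log2 fold change of -0.70 ± 0.11 (edgeR FDR 0.0219). Gda, guanine deaminase, was at 14.3, 9.91 and 12.7 CPM in the controls and at 4.98 to 8.48 CPM in the knockdowns, with no overlap, at -0.91 ± 0.16 (edgeR FDR 0.0384). AC163101.1, an annotated transcript of no known function that lies within Colec12 on the same strand of chromosome 18, was at 6.75, 8.13 and 15.9 CPM in the controls and at 3.44 to 6.38 CPM in the knockdowns (-1.22 ± 0.22, edgeR FDR 0.0413). Its reads may be shared with Colec12, a scavenger receptor that was itself at -0.35 and not called (edgeR FDR 0.231). Ramp2, an accessory protein of calcitonin-family receptors, rested on few reads: 84 counts in the 3 controls and 2 in the 6 knockdown libraries. The ratio of control to knockdown on these counts was 93.7, with an exact 95% interval from 25.1 to 786 that covers counting error only. Its locus overlaps Vps25 on the same strand, so the split of reads between the genes is uncertain.

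Among the higher genes, Ifi27l2a (chr12:103442167-103443680, minus strand), an interferon-inducible gene, had the lowest p. It was at 48.9, 57.8 and 38.6 CPM in the controls, at 83.2, 93.5 and 56.8 CPM under Chd8 siRNA and at 90.7, 98.2 and 71.3 CPM under Tsc2 siRNA. The lowest knockdown library, Chd8 siRNA 3, lay just under the highest control, and all other knockdown libraries lay above every control. It was 1.70-fold higher, a log2 fold change of 0.76 ± 0.093 (SE) at an edgeR FDR of 0.00582. In the list of interferon response genes, 14 of 30 tested members were higher and 0 lower at an unadjusted p under 0.05, and 15 lay above their control in all 6 libraries. The differences were small: the list's median log2 fold change was 0.13, its median per library lay between 0.07 in Tsc2 siRNA 3 and 0.18 in Chd8 siRNA 1, and Ifi27l2a alone was called. Isg15, a ubiquitin-like modifier named after its values were seen, was at 374, 483 and 405 CPM in the controls and at 435 to 546 CPM in the knockdowns (log2 fold change 0.20, edgeR FDR 0.300). The count of higher members was 6 without control 1, 2 or 3, 9 without Chd8 siRNA 1 and 1 without the replicate block.

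MHC class I genes lay the same way. Of 19 tested, 9 were higher and 0 lower at an unadjusted p under 0.05, 10 lay above their control in all 6 libraries and 1 below, and the median log2 fold change was 0.18. None was called. H2-K1, a classical class I heavy chain, was at 1225, 1052 and 951 CPM in the controls, at 1519, 1274 and 976 CPM under Chd8 siRNA and at 1456, 1434 and 1375 CPM under Tsc2 siRNA (log2 fold change 0.32, edgeR FDR 0.210). H2-T22, of the non-classical genes, had a log2 fold change of 0.26 (edgeR FDR 0.217). B2m, the light chain shared by all class I molecules, had one of 0.19 (edgeR FDR 0.361). H2-Q6 and H2-Q7 had the largest differences of the list, 0.88 and 0.72, but they are near-identical copies whose reads salmon may divide between them. Without control 2 or control 3 the count of higher members was 5 or 4, and without the replicate block it was 1. Of 11 class II and costimulation genes tested, 1 was higher (Cd80, 0.54) and 0 lower, and the median was 0.04.

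**Figure D3:**
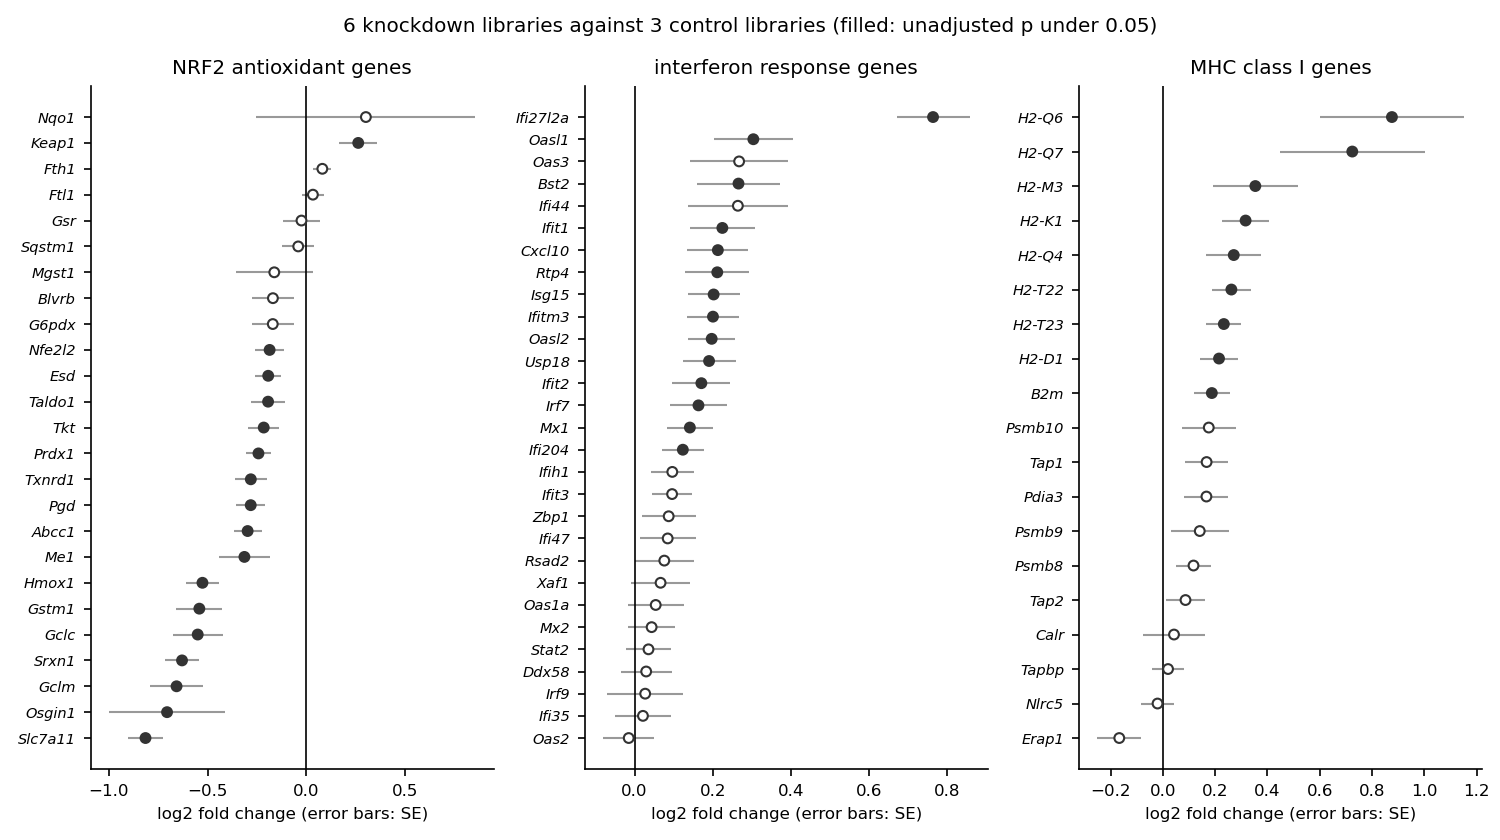
Pooled log2 fold change of the tested members of 3 gene lists (29 of the 30 interferon response genes are drawn), 6 knockdown against 3 control libraries, with SE from edgeR and filled points at an unadjusted p under 0.05. The NRF2 panel lies mostly left of 0 (16 of 25 filled and lower) and the interferon and MHC class I panels mostly right (14 of 30 and 9 of 19 filled and higher).

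Cd5l (chr3:87357881-87371073, plus strand), a secreted protein of macrophages in the scavenger receptor family, had the largest fold of the higher genes other than the pseudogene Gm4294. It was at 4.90, 3.88 and 2.62 CPM in the controls, at 17.4, 18.5 and 12.96 CPM under Chd8 siRNA and at 12.5, 7.52 and 14.9 CPM under Tsc2 siRNA. Every knockdown library lay above every control. It was 3.72-fold higher, a log2 fold change of 1.90 ± 0.28 (SE) at an edgeR FDR of 0.0178. In the list of LXR and lipid handling genes, which it belongs to, 2 of 18 were higher and 1 lower at an unadjusted p under 0.05, with a median of -0.05. Fgl2 (chr5:21372642-21378374, plus strand), a fibrinogen-like protein with secreted immunoregulatory and membrane-bound prothrombinase forms, was at 136, 119 and 47.4 CPM in the controls, at 252, 227 and 105 CPM under Chd8 siRNA and at 266, 369 and 189 CPM under Tsc2 siRNA. Only Chd8 siRNA 3 lay below a control, and not below the control of its own number. It was 2.43-fold higher, 1.28 ± 0.19 on the log2 scale, at an edgeR FDR of 0.0178, and it overlaps Ccdc146 on the other strand.

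The remaining higher genes included a subunit of a ribonucleoprotein and a kinase. Srp14, a subunit of the signal recognition particle, was at 25.9, 24.3 and 16.2 CPM in the controls and at 39.3 to 56.4 CPM in the knockdowns, with no overlap (1.03 ± 0.16, edgeR FDR 0.0200). Map2k4, the kinase that activates JNK and p38, was at 135, 87.0 and 59.2 CPM in the controls and at 124 to 182 CPM in the knockdowns (0.73 ± 0.12, edgeR FDR 0.0219). Swap70, an actin-binding protein of Rac signalling, was at 141, 217 and 162 CPM in the controls and at 189.9 to 436 CPM in the knockdowns (0.79 ± 0.12, edgeR FDR 0.0178). The groups overlapped for Map2k4 and Swap70. B3galnt1, which makes globoside, and Rcbtb2 had log2 fold changes of 0.65 ± 0.10 and 0.65 ± 0.12 (edgeR FDR 0.0178 and 0.0484). Gm4294, a processed pseudogene, had 0 counts in all 3 controls and 328 in the knockdowns, from 0.351 to 4.72 CPM. With the controls set to 3 counts over the group it was at least 49.0-fold higher, and as a processed copy it may share reads with its parent gene.

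A further 10 genes passed the FDR below 1.5-fold, 7 higher and 3 lower, and are named after their values were seen. Ccl7, a chemokine for monocytes, was at 398, 304 and 305 CPM in the controls and at 375 to 614 CPM in the knockdowns (log2 fold change 0.54 ± 0.076, edgeR FDR 0.0174). The others higher were Fscn1 (0.53), an actin bundling protein, Ptms (0.48), Rin2 (0.47), an activator of Rab5, Rtraf (0.44), Tnfaip2 (0.43) and Fam177a (0.41). Beside Hmox1, the lower ones were Ccny (-0.57), cyclin Y, and Dot1l (-0.47), a histone H3 methyltransferase. For Hmox1, Ccny and Dot1l every knockdown library lay below every control.

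Chemokines lay in both directions without a call. At an unadjusted p under 0.05, 7 of 18 were higher and 3 lower, and the 3 lower ones were the neutrophil attractants Cxcl1, Cxcl2 and Cxcl3. Cxcl3 was at 31.3, 60.2 and 134 CPM in the controls, at 13.3, 42.1 and 52.6 CPM under Chd8 siRNA and at 14, 61.2 and 70.3 CPM under Tsc2 siRNA (log2 fold change -0.87, edgeR FDR 0.0644). Tsc2 siRNA 2 did not lie below its control. In the list of complement and Fc receptors, 7 of 20 were higher, among them C1qc at 0.26 (edgeR FDR 0.1396), a chain of the starter complex of complement, and 2 were lower, led by C3 at -0.38 (edgeR FDR 0.0901). None was called. Of 8 colony-stimulating factor genes tested, 3 were lower and none higher, led by Csf3 at -0.65 (edgeR FDR 0.138) and Csf2rb at -0.27. Of 15 genes tested in the list of inducible inflammatory enzymes, 4 were lower and none higher. Nos2 at -0.56 (edgeR FDR 0.199) led, with Lcn2 at -0.42, which is in the list but is not an enzyme. Il6 (-0.29) and Il12b (0.50) led the 17 cytokines, of which 3 were higher and 2 lower. Ly96, the partner of Tlr4 in LPS sensing, was at 0.72 (edgeR FDR 0.201) and Nfkbib at 0.30 in the list of 25 NF-kB and LPS sensing genes, of which 5 were higher and 1 lower. AP-1 and immediate early genes counted 6 higher and 1 lower of 23, with Dusp1 at 0.47 and Fosl1 at -0.82. Single libraries moved several of these counts by over 1.5 times. Without control 2 there were 2 higher AP-1 and immediate early genes, 3 higher NF-kB and LPS sensing genes, 2 lower members of the inflammatory enzyme list and 1 lower colony-stimulating factor gene. Without control 3 there were 2 higher NF-kB and LPS sensing genes, and without control 1 or Chd8 siRNA 1 there were 3 lower AP-1 and immediate early genes.

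The RNA levels of genes in the targets' own pathways showed little change in the pooled comparison. The activity of these pathways was not measured. Of 29 mTOR pathway genes tested, 1 was higher and 2 lower at an unadjusted p under 0.05, with a median log2 fold change of 0.00 and Rps6ka2 the only call. Of 24 CHD family and chromatin remodeler genes, 1 was higher (Smarca4, 0.20) and 1 lower (Pogz, -0.27), and of 20 Wnt and beta-catenin genes 0 were higher and 2 lower (Apc, -0.28, and Tcf7). Tcf7 was near the limit, at 0.151, 0.431 and 2.70 CPM in the controls and at 0 in 4 of the 6 knockdown libraries, so no fold is given. The shares of the mTOR and CHD lists are near those of all genes in this fit. The lower members of the CHD list were 4 without Tsc2 siRNA 3, 3 without Tsc2 siRNA 2 and 0 without control 1, control 3 or Chd8 siRNA 1. The 15 homeostatic microglia genes counted 1 higher (Selplg, 0.36) and 3 lower (Rhob at -0.35 led), the 23 disease-associated microglia genes 2 higher and 2 lower (B2m at 0.19 and Spp1 at -0.49 led), and the 23 phagocytic and scavenger receptors 0 higher and 3 lower (Colec12 and Pros1 led). Heat shock chaperones counted 4 higher and 1 lower of 19 (Ahsa1 at 0.53, Hspa1b at 0.52), ATF4 and unfolded protein response genes 5 and 1 of 26, where the lower one was the called Slc7a11, also a member of the NRF2 list, lysosome and autophagy genes 4 and 0 of 28 (Npc2 and Gabarap led), and glycolysis and hypoxia-inducible genes 1 and 2 of 24 (Pkm at -0.22, Hif1a at -0.23). Cell cycle genes counted 1 and 1 of 28 (Ccne1 and Birc5), p53 target genes 1 and 3 of 20 (Plk2 and Pmaip1 led), oxidative phosphorylation subunits 1 and 0 of 30 (Ndufb5), and cholesterol synthesis genes 1 and 0 of 22. The list of purinergic receptors and ectonucleotidases counted 2 and 1 of 16. Its only call was Gda, which is neither a receptor nor an ectonucleotidase. These small counts also moved with single libraries. The 4 higher lysosome and autophagy genes became 0 without control 1 or Chd8 siRNA 1, 1 without Chd8 siRNA 2 and 2 without control 3 or Tsc2 siRNA 1. The 5 higher ATF4 and unfolded protein response genes became 3 without control 1 or control 3 and 8 without Chd8 siRNA 3, and the 4 higher heat shock chaperones became 2 without control 2 or control 3. Without control 2 or control 3 there was 1 lower homeostatic gene and 1 lower phagocytic or scavenger receptor, while the lower receptors were 5 without Chd8 siRNA 2 and 6 without Chd8 siRNA 3. No p53 target gene was lower without control 3. In all, 9 of 598 tested members of the 29 lists were called, where 0.117% of all genes were, and the lists were chosen with earlier results of these data known.

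Chd8 siRNA and Tsc2 siRNA shared the same 3 controls, so their values against control are given side by side without a test of likeness. Neat1 was at -0.76 ± 0.082 under Chd8 siRNA and -0.67 ± 0.082 under Tsc2 siRNA, Slc7a11 at -0.86 ± 0.10 and -0.77 ± 0.10, Ifi27l2a at 0.67 ± 0.089 and 0.85 ± 0.089 and Cd5l at 2.11 ± 0.27 and 1.64 ± 0.27 (log2 fold change and SE). The difference between the 2 siRNAs does not use the controls and was tested directly. By edgeR, 36 genes, or 0.221%, differed at an FDR under 0.05 and 1.5-fold, and none of the 19 called genes was among them. The pooled fit counts a difference between the siRNAs as residual spread and so selects against such genes, and nothing is read from that 0. At an unadjusted p under 0.05, 2 called genes differed, Fgl2 with a difference of -0.56 ± 0.14 (edgeR FDR 0.108) and Srxn1 with -0.19 ± 0.086 (edgeR FDR 0.438), Chd8 siRNA minus Tsc2 siRNA. For Fgl2 all 3 Tsc2 libraries were higher than the Chd8 library of their number. The SE of this difference ran up to 0.27 among the called genes other than Ramp2 and Gm4294. Even the difference of Fgl2 did not pass the FDR, so the siRNAs may differ in the called genes by amounts not detectable here.

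**Figure D4:**
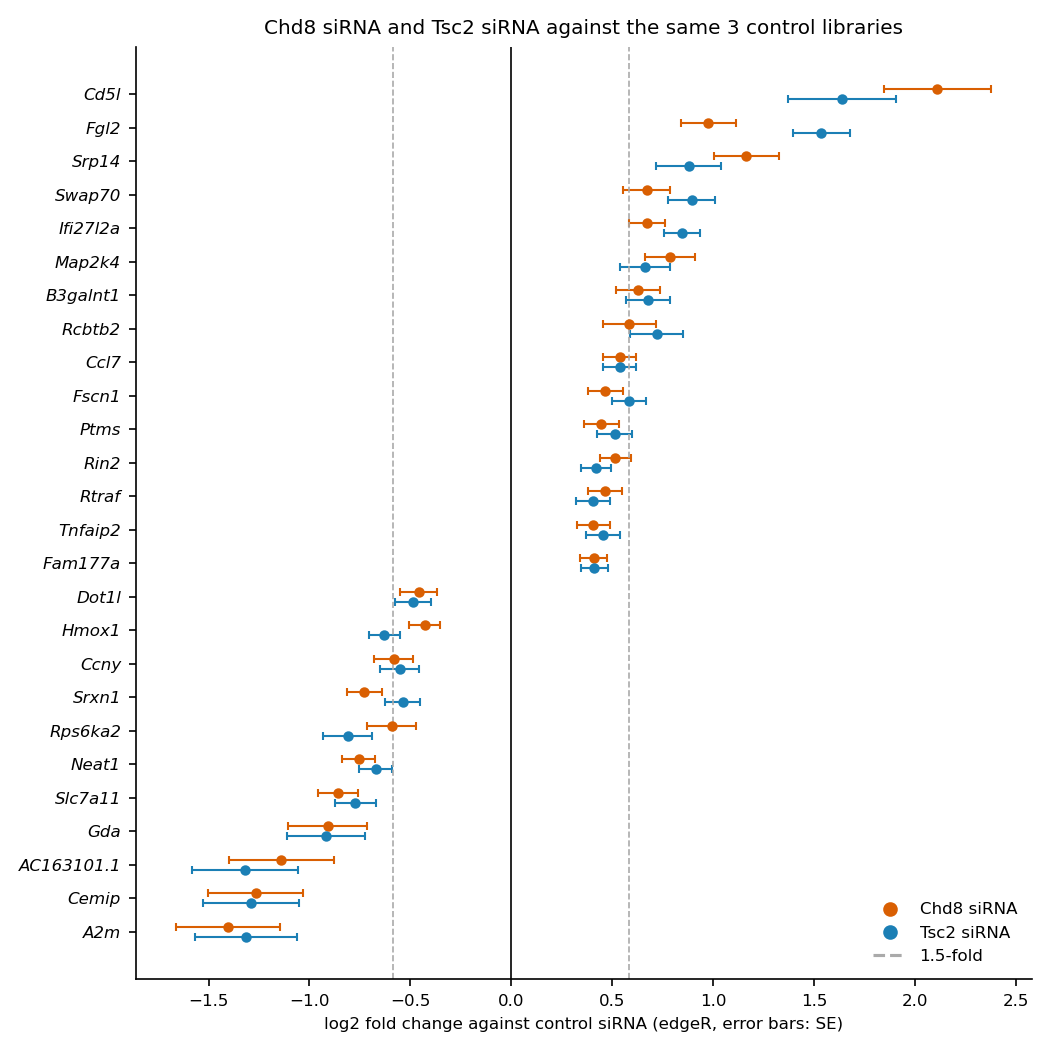
Log2 fold change against control of Chd8 siRNA (orange) and Tsc2 siRNA (blue), with SE from the edgeR fit with 3 siRNA levels, for 26 of the 29 genes past an FDR of 0.05 in the pooled comparison, without Ramp2 and Gm4294, which are near 0 in 1 group. Dashed lines mark 1.5-fold. Both siRNAs lie on the same side for each gene, which the choice of genes in part fixes, and Fgl2 has the widest gap of the 2 relative to its SE.

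**Figure D5:**
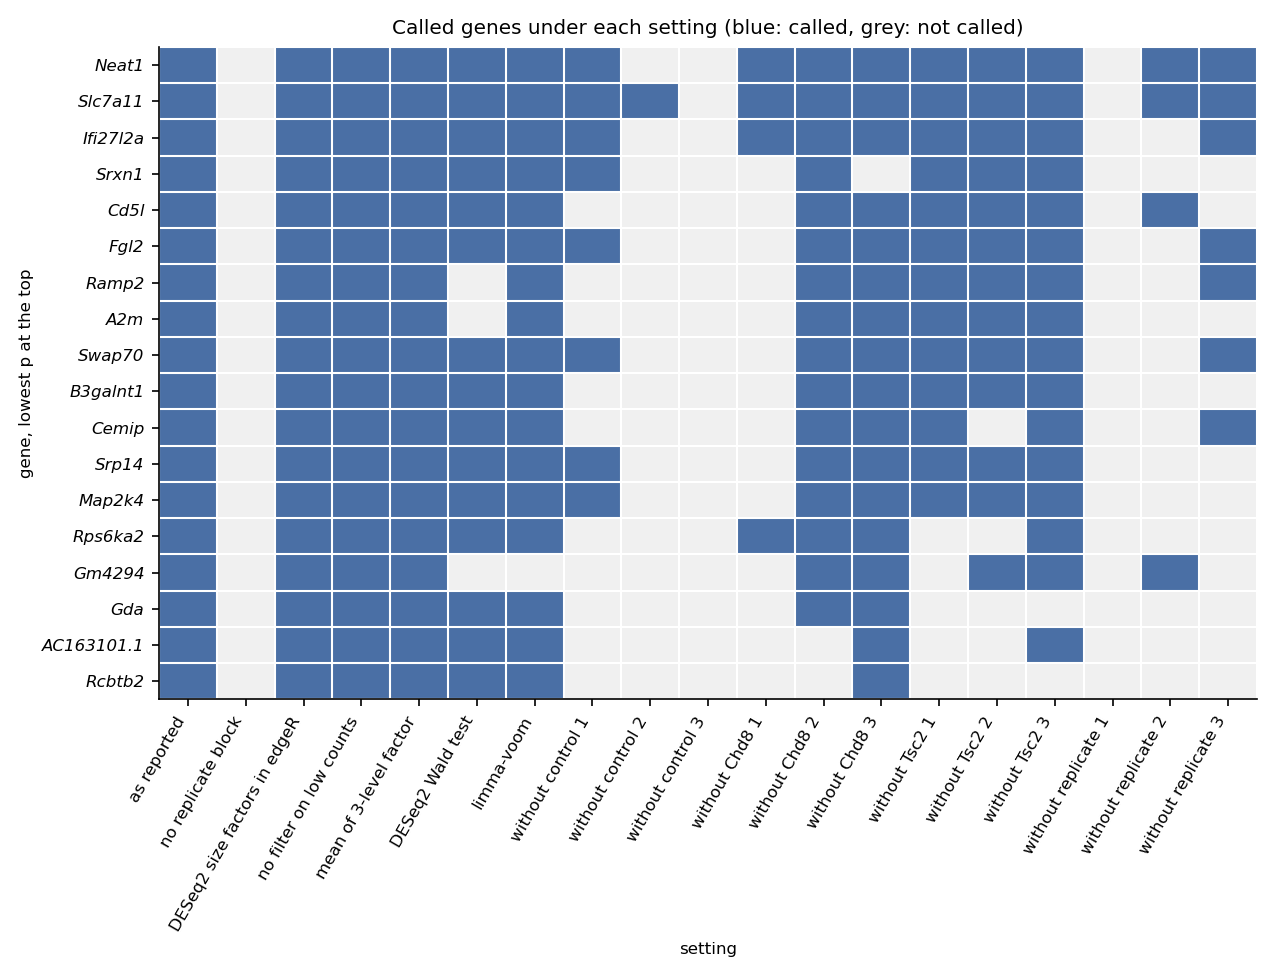
Of the 19 called genes, 18 (lowest p at the top) under the reported fit and 18 other settings, blue where called. The column without the replicate block, those without control 3 and without replicate 1 hold no call, and Slc7a11 is called in 15 of the 18 other settings.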

How the data were processed

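RNA from 9 libraries of primary mouse microglia was sequenced after 3 days of siRNA. The authors quantified transcripts with Salmon 0.14.1 on mm10 (versions from the submitters' processing notes) and deposited estimated counts, which are expected counts and not whole numbers. Which library kit was used is described differently in the labels and the methods. Of 140948 transcripts, 139852 were matched to GENCODE genes of the same build, and the 1096 unmatched held 0.27% of counts. Counts were summed to genes and rounded. Genes were filtered with filterByExpr, scaled by TMM and tested with edgeR 4.0.16 (R 4.3.3) with knockdown and replicate number as terms. Genes were called at an FDR of 0.05 and 1.5-fold. The 2 siRNAs were compared in a fit with 3 siRNA levels, and single genes with a two-sided exact permutation test within numbers (log2 of CPM plus 0.5). Alternatives used DESeq2 1.42.0 and limma 3.58.1. Same-numbered libraries deviated from their group means together (9 pairs, r from 0.24 to 0.52, against -0.38 to 0.04 for other numbers), so the numbers were taken to pair the libraries. The study's methods take each biological replicate from a separate brain. Nothing in the labels says that a number marks a shared culture. Xist, an RNA of the X chromosome, was at 469 to 507 CPM in the libraries numbered 1 and at 142.5 to 200 CPM in the others. The Y-linked Ddx3y was at 5.90 to 7.43 CPM and at 19.2 to 37.5 CPM, so both were present in every library. Whether a library holds cells of more than 1 brain was not tested. Named genes were the targets and Igf1, all called genes, and in each list its called members or else the 2 members with the lowest p. Members and gene lists were chosen with earlier results of these data known, so lists are described by counts and medians only. Depth was 16913005 to 33213477 counts per library, and 3 counts correspond to 0.0903 to 0.177 counts per 1000000 (CPM). A few genes of the tests and lists are not reported here by name, though they are counted.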

Additional observations from a re-analysis of the deposited data

Results flagged for a closer look

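Ramp2 in Chd8 siRNA 1 stood apart from the other 5 knockdown libraries, at 0.067 CPM against 0 in the rest, which is 2 reads. AC163101.1 in Chd8 siRNA 3, at 6.38 CPM, stood above the other 5 knockdown libraries, but control 3 was also the highest control, at 15.9 CPM, and the log2 difference of the pair, -1.26, lay within the range of the 6 pairs, -1.99 to -0.76. Both gaps pass Dixon's 95% limit for 6 samples, which for Ramp2 any value above 0 would do since the other 5 are at 0, 22 genes were examined in this way, and chance passes about 1 group in 20. For 3 of the named genes the effect of the siRNAs differed by edgeR's test of the difference, Chd8 siRNA minus Tsc2 siRNA: Chd8 at -0.93 on the log2 scale (edgeR FDR 0.0156), Csf3, the granulocyte colony-stimulating factor, at 0.60 (edgeR FDR 0.0156), and Spp1, osteopontin, at 0.49 (edgeR FDR 0.0263). Csf3 was at 167, 96.4 and 169 CPM in the controls, at 137, 69.1 and 129 CPM under Chd8 siRNA and at 77.1, 52.6 and 86.6 CPM under Tsc2 siRNA.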

How the results depend on the processing

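The 19 genes called with the replicate block became 0 without it (502 genes at an unadjusted p under 0.05), 29 with no fold threshold, 63 with the siRNA as 3 levels, 61 by DESeq2, 42 by limma-voom, 152 with no filter on low counts and 0 when transcripts were tested. DESeq2's size factors gave 19. Leaving out a library gave 0 to 38 calls (0 without control 3, 3 without control 2, 13 without control 1, 4 without Chd8 siRNA 1, 38 without Chd8 siRNA 3). In the blocked fit, leaving out a control takes its whole number out of the comparison. Leaving out a replicate number gave 0 to 16, with 0 without replicate 1 and 8 without replicate 2. The split of higher and lower was 11 and 31 by limma-voom, 31 and 30 by DESeq2, 27 and 36 with 3 levels and 69 and 83 without the filter. Of the 19 genes, DESeq2 called 16 and limma-voom 18. All 19 kept their direction in every gene-level fit, which their choice on the same values largely fixes. The log2 fold change of Igf1 ran from -0.0106 to 0.0721 when a library or number was left out, reversed at -0.0106 without control 1 and without replicate 1. The causes of these shifts were not tested. With 3 controls and a biological coefficient of variation of 0.25, precision was limited, and the smallest detectable difference was not computed.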
